A study of Saccharomyces cerevisiae with 4 samples.

Results

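The genes described here encode the yeast beta-1,3-glucan synthase and the Rho1 GTPase switch that turns it on. They are 10 of the 6207 genes in the deposited table, chosen by systematic name: FKS1 (YLR342W), GSC2 (YGR032W, also called FKS2) and FKS3 (YMR306W) for the synthase, SMI1 (YGR229C), RHO1 (YPR165W), the exchange factor genes ROM1 (YGR070W), ROM2 (YLR371W) and TUS1 (YLR425W), and the GTPase activating protein genes SAC7 (YDR389W) and LRG1 (YDL240W). The cells were a mid2 mutant of Saccharomyces cerevisiae in the BY4741 background, grown in YEPD, a rich medium, at 24 °C. MID2 encodes a cell surface sensor of wall stress, and both portions of every culture carried the mutation. One portion of a culture was exposed to 15 ng/ml of caspofungin for 2 h, and the other stayed untreated. Total RNA of 2 cultures was hybridised to 4 2-colour arrays, with swapped dyes. Caspofungin RNA carried Cy3 and untreated RNA Cy5 on arrays 1 and 3, called the Cy3 arrays here, and the dyes were reversed on arrays 2 and 4, called the Cy5 arrays. Which of the arrays belong to the same culture is not labelled, and no wild type was used here.

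Beta-1,3-glucan is the main load-bearing polymer of the yeast wall. It is made at the plasma membrane by an enzyme whose catalytic subunit is Fks1 during vegetative growth or its close paralogue Gsc2, whose transcription is known to depend on calcineurin and on the cell wall integrity pathway. Caspofungin is an echinocandin, a class of drugs that blocks this enzyme. Rho1 in its GTP-bound form activates the synthase and also the kinase Pkc1. Wall sensors such as Mid2 recruit the exchange factors that load GTP onto Rho1, and GTPase activating proteins return it to the inactive state.

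Each value is the log2 ratio deposited by the authors for 1 gene on 1 array. Positive ratios are read below as more transcript with caspofungin than without it. The labels do not state this direction, so values are given as deposited, and again with the signs of arrays 2 and 4 turned, as would be needed if the ratios followed the dyes. Turned values are positive where the dye-following signal is on the side of caspofungin when the ratio is Cy3 over Cy5, and would change sign if it is Cy5 over Cy3. Ratios carry no transcript level, and no scanner intensities were used. In RNA of a whole culture, fewer cells with a transcript and less transcript per cell cannot be told apart.

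Many cells were blank for this set, as they were in the whole table. GSC2, RHO1, ROM1 and LRG1 had a value on all 4 arrays, SMI1 on 3, and FKS1, TUS1 and SAC7 on 2, while FKS3 and ROM2 were blank on every array. Of all 6207 genes, 47.1% had 4 values and 29.1% had none. Of the 40 possible values of the 10 genes, 15 were blank, and arrays 1 and 3 gave 11 values against 14 on arrays 2 and 4. Over all genes, arrays 1 and 3 also gave fewer values, 3215 and 3228, against 4346 and 3538 on arrays 2 and 4. A blank cell is no measure of absence, since the rule that left cells blank is not given in the sources used here.

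**Figure D1:**
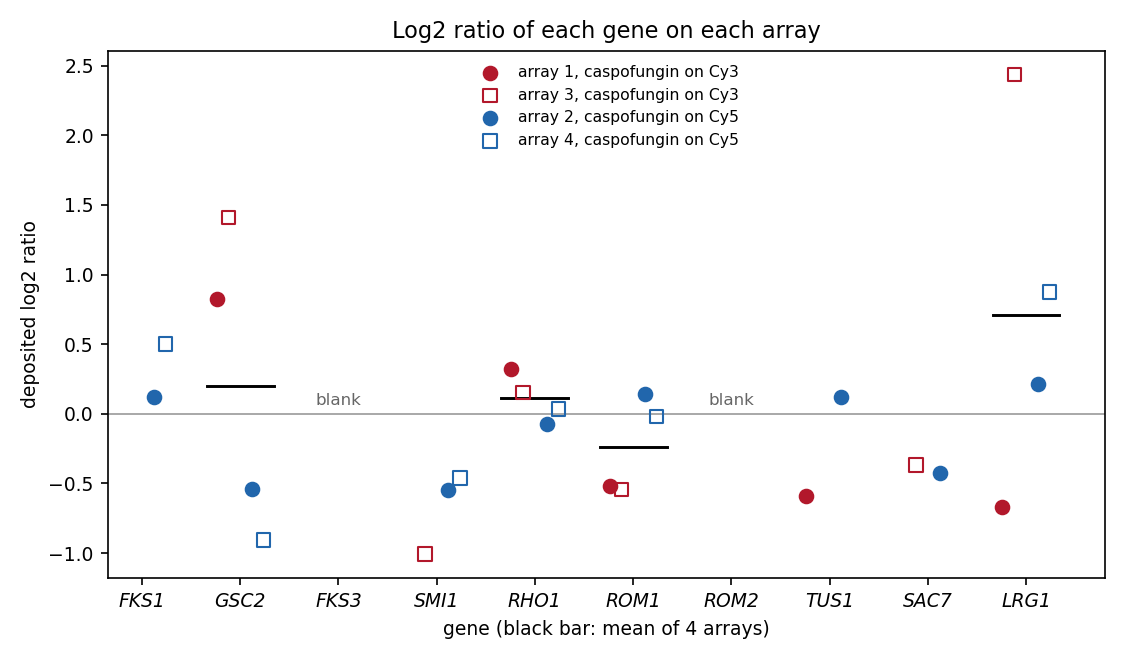
Deposited log2 ratio (vertical axis) of the 10 genes (horizontal axis), 1 point per array. Red points are arrays 1 and 3 with caspofungin RNA on Cy3, blue points are arrays 2 and 4 with it on Cy5, and the black bar is the mean of genes with 4 values. GSC2 lies above 0 on both red points and below 0 on both blue points, and LRG1 spans from -0.67 to 2.43.

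None of the 4 genes with complete values passed the test of the caspofungin ratio (0 of 4, limma, adjusted p from 0.205 to 0.486), and 0 of them were under an unadjusted p of 0.05. The same fit over the 2925 genes with 4 values called 1 gene, or 0.0342%, and had 741 genes, or 25.3%, under an unadjusted p of 0.05. No gene of the set kept 1 sign on all 4 arrays either (0 of 4), beside 6.87% of all genes tested that were positive throughout and 19.3% that were negative throughout. The median of the 4 means was 0.15, and that of all genes tested was -0.13. As array medians ran from -0.22 to -0.06, each array was also centred on its median, which moved the means to 0.31 for GSC2, 0.22 for RHO1, -0.12 for ROM1 and 0.83 for LRG1.

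The synthase gene GSC2 had log2 ratios of 0.82 and 1.41 on the Cy3 arrays 1 and 3, against -0.54 and -0.91 on the Cy5 arrays 2 and 4. The signs thus split without overlap by the dye on the caspofungin RNA. Its mean was 0.20 ± 1.10 (SD, n = 4 arrays). That spread holds the dye split, with means of 1.12 on the Cy3 arrays and -0.72 on the Cy5 arrays. The test used 2 culture means instead, each averaged over both dye orientations. The standard error was 0.08 with arrays 1 and 2 as a culture and 0.14 with arrays 1 and 4 as a culture. GSC2 did not pass with the larger p of both pairings (limma, adjusted p = 0.385). The ratio ranked 141st from the top of 3215 genes on array 1 and 90th of 3228 on array 3, and lay at the percentiles 8.56 and 1.89 on arrays 2 and 4. Leaving out array 1 gave a mean of -0.01 and leaving out array 3 one of -0.21, each with 1 Cy3 array against 2 Cy5 arrays.

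With arrays 2 and 4 turned by the dye labels, the GSC2 ratios were 0.82, 0.54, 1.41 and 0.91 on arrays 1 to 4, all positive. Their mean was 0.92 ± 0.36 (SD, n = 4), a 1.89-fold difference that ranked 31st of 2925 genes by size. It did not pass with the larger p of both possible pairings of arrays (limma, adjusted p = 0.0763, unadjusted p = 0.000842). No gene did in that fit (0%), where 944 genes, or 32.3%, were under an unadjusted p of 0.05, as were GSC2 and ROM1 of the set. The adjusted p of GSC2 was the lowest value of that fit, which 246 genes shared. GSC2 did pass when arrays 1 and 2 were taken as 1 culture and 3 and 4 as the other (limma, adjusted p = 0.0247), with arrays centred (0.0497) and with arrays centred and scaled (0.0259). Of the 2925 genes, 485, 237 and 590 passed in those fits, in that order. Positive ratios where caspofungin carried Cy3 and negative ones where it carried Cy5 were found in 13.4% of all genes tested, and the opposite split in 19.7%.

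HIS3 and LEU2, which are disrupted in BY4741 and so in both portions of a culture, split the opposite way. HIS3 had -0.63 and -0.64 on the Cy3 arrays, against 0.40 and 0.39 on the Cy5 arrays. LEU2 had -0.58 and -0.64 on the Cy3 arrays, against 0.24 and 0.25 on the Cy5 arrays. Their sizes after turning, -0.51 and -0.43, were below that of GSC2. Which part of the GSC2 ratios belongs to the dyes and which to caspofungin cannot be told apart here without the direction of the deposited ratios.

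FKS1, the gene of the main vegetative subunit, had 0.12 on array 2 and 0.50 on array 4, and was blank on arrays 1 and 3. On the same arrays its paralogue GSC2 was negative. It was 1 of 242 genes with values on arrays 2 and 4 alone, of which 13.2% were positive on both. The array 4 value of FKS1 was at percentile 93.1 and the array 2 value at 73.9. Both arrays are among those whose signs turn, and FKS1 would then read -0.12 and -0.50. Both arrays carried caspofungin on Cy5, so no dye swap stands behind these values and no test was made. FKS1 and GSC2 are close paralogues whose spots could share signal, which was not tested. FKS3, a more divergent family gene, gave no value.

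SMI1 encodes a regulator of glucan synthesis, also called Knr4, that binds the kinase Slt2. Its ratio was -1.01 on array 3, -0.54 on array 2 and -0.46 on array 4, negative on all 3 arrays that measured it, with a mean of -0.67 ± 0.29 (SD, n = 3). Among the 374 genes with 3 values, 48.1% were negative on all 3. In a fit of the 3299 genes with at least 3 values SMI1 did not pass (limma, adjusted p = 0.223, unadjusted p = 0.00553), nor did any other gene (0%, with 20.6% under an unadjusted p of 0.05). Whichever array shared a culture with array 1, that culture rests here on 1 array and keeps its dye part. Turned by the dye labels the values were -1.01, 0.54 and 0.46 on arrays 3, 2 and 4, so the shared sign holds for the ratios as deposited alone.

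RHO1, the GTPase gene, had the smallest spread of the 4 completely measured genes. Its ratios were 0.32 and 0.15 on the Cy3 arrays, against -0.07 and 0.03 on the Cy5 arrays, so that 3 of 4 were positive. The mean was 0.11 ± 0.17 (SD, n = 4; limma, adjusted p = 0.486), and 0.04 without array 1 or 0.17 without array 2. The 95% limma intervals of that mean ran from -0.11 to 0.33 with arrays 1 and 2 as a culture and from -0.14 to 0.36 with arrays 1 and 4 as a culture. Turned by the dye labels the mean was 0.13 ± 0.15 (limma, adjusted p = 0.413). RHO1 thus had a mean of about the same size on either reading of the signs.

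Of the exchange factor genes, ROM1 had -0.52 and -0.54 on the Cy3 arrays, against 0.14 and -0.02 on the Cy5 arrays. The Cy3 arrays lay below both others, by a gap wider than either pair. Its mean was -0.24 ± 0.35 (SD, n = 4; limma, adjusted p = 0.205), and -0.30 ± 0.28 turned by the dye labels (limma, adjusted p = 0.111). As deposited, the mean was -0.14 without array 1, -0.36 without array 2 and -0.13 without array 3. TUS1 had -0.59 on array 1 and 0.12 on array 2, close to ROM1 on the same arrays, and was blank on the other arrays. Of the 102 genes with values on arrays 1 and 2 alone, 46.1% had that pair of signs. TUS1 was negative on both when turned by the dye labels, at -0.59 and -0.12. ROM2, which encodes the main exchange factor recruited by the wall sensors, gave no value, so the set holds no measure of it.

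The GTPase activating protein genes had values of opposite sign on arrays 2 and 3, the arrays that measured both. SAC7, whose product turns Rho1 off in actin and Pkc1 signalling, had -0.37 on array 3 and -0.42 on array 2, and was blank on arrays 1 and 4. These arrays may come from 1 culture, so no spread between cultures is given. Of the 43 genes with values on those 2 arrays alone, 55.8% were negative on both, and the SAC7 values lay at percentiles 40.7 and 15.0. SAC7 would have -0.37 and 0.42 after turning, of opposite sign. LRG1, whose product is known to act on Rho1 in its control of glucan synthesis, had -0.67 and 2.43 on the Cy3 arrays 1 and 3, against 0.22 and 0.87 on the Cy5 arrays 2 and 4. Its value on array 3 was the 24th highest of 3228, while that on array 1 was at percentile 10.7, although both arrays had the same dye orientation.

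The mean of LRG1 was 0.71 ± 1.31 (SD, n = 4), ranked 96th of 2925 genes by size, and it did not pass (limma, adjusted p = 0.42). Turned by the dye labels it was 0.17 ± 1.54, ranked 1697th by size (limma, adjusted p = 0.846). Leaving out array 3 or array 1 moved the mean as deposited the most, in opposite directions. The mean of the remaining arrays was 0.14 without array 3 and 1.17 without array 1. In each case 1 culture rested on 1 array and kept its dye part. With all 4 arrays, the 95% limma interval of the LRG1 mean ran from 0.02 to 1.41 with arrays 1 and 4 as a culture. It ran from -0.83 to 2.25 with arrays 1 and 2 as a culture. LRG1 had the 14th widest range between arrays of the 2925 genes and GSC2 the 53rd, and both exceeded 1 on the log2 scale, as did 27.2% of all genes tested. After turning, the range of LRG1 was 3.31, the 32nd widest, and that of GSC2 was 0.87, the 806th, while 18.9% of all genes exceeded 1.

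**Figure D2:**
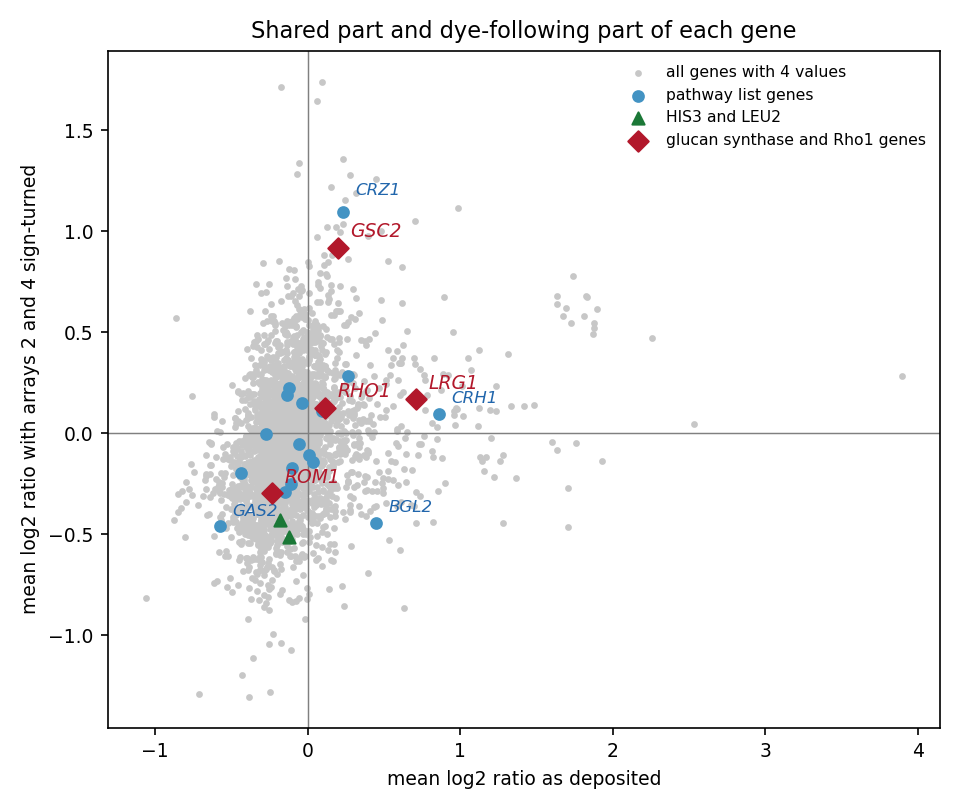
Mean log2 ratio as deposited (horizontal axis) against the mean with the signs of arrays 2 and 4 turned by the dye labels (vertical axis) for the 2925 genes with 4 values in grey. GSC2 stands at 0.20 and 0.92, beside CRZ1 at 0.23 and 1.10, and LRG1 at 0.71 and 0.17, while HIS3 and LEU2 lie below 0 on the vertical axis.

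For GSC2 and LRG1, whose ranges exceeded 1, the 5 genes with the smallest Euclidean distance over the 4 ratios were taken as the nearest patterns. Those of GSC2 were FLO8, a transcription factor gene of flocculation (distance 0.26), FAR7 of pheromone arrest (0.27), the row YMR045C (0.35), CRZ1, the gene of the transcription factor that calcineurin activates (0.40), and LAM1 (0.43), against a median distance of 2.18 over 2924 genes. All 5 were positive on both Cy3 arrays and negative on both Cy5 arrays, which follows from picking them by distance over the same ratios. CRZ1 had 1.16 and 1.50 on the Cy3 arrays, against -0.69 and -1.04 on the Cy5 arrays. Its mean was 0.23 ± 1.28 as deposited (SD, n = 4; limma, adjusted p = 0.269) and 1.10 ± 0.33 turned (limma, adjusted p = 0.0763). CNB1, the regulatory subunit gene of calcineurin, had -0.13 ± 0.43 and no such split.

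The nearest gene to LRG1 was YOR389W at a distance of 0.17, with -0.58 and 2.53 on the Cy3 arrays, against 0.21 and 0.97 on the Cy5 arrays. FAP1 (0.59), SKI2, an RNA helicase gene (0.72), SIN3, a histone deacetylase subunit gene (0.84), and FMP27 (0.85) followed, against a median of 2.98. All 5 had their highest value on array 3, from 1.83 for FMP27 to 2.69 for SIN3, which again follows from how they were picked. Of the genes next to GSC2 and LRG1 in RefSeq order, only TIM21 beside GSC2 and YDL241W beside LRG1 had 4 values. Neither had the pattern of its neighbour. TIM21 had 0.23 and -0.29 on the Cy3 arrays, against -0.39 and -0.36 on the Cy5 arrays, and YDL241W stayed between -0.26 and 0.06. On the other sides, NAG1 beside GSC2 was not among the genes measured, and ADY3 beside LRG1 had a value on array 2 alone, -0.53.

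**Figure D3:**
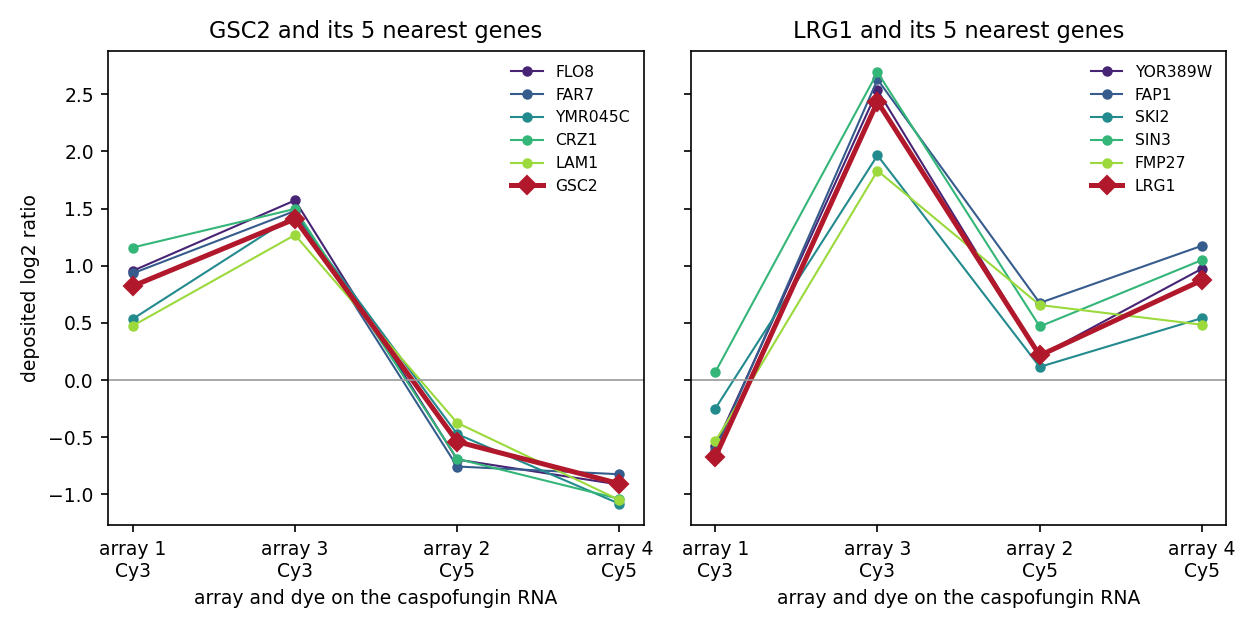
Deposited log2 ratio (vertical axis) on each array, grouped by the dye on the caspofungin RNA (horizontal axis), for GSC2 (left, red) and LRG1 (right, red) with the 5 genes nearest to each. The GSC2 group lies above 0 on both Cy3 arrays and below 0 on both Cy5 arrays, and the LRG1 group peaks on array 3. Both shapes follow from picking the genes by distance over these same ratios.

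Around the switch, 7 lists of pathway genes held 39 genes, of which 17 had 4 values and 12 were blank on every array. None of the 17 passed in either direction (0 genes, limma), with 2 positive and 2 negative means under an unadjusted p of 0.05. Of the 2925 genes tested, 200 positive and 541 negative means were under it, or 25.3% in either direction. Of the 17, 1 was positive on all 4 arrays and 3 were negative on all 4, beside the 6.87% and 19.3% of all genes given above. Their median was -0.05, beside the -0.13 of all genes tested.

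Upstream of Rho1, the wall sensor list had 1 gene of 5 with values, SLG1, also called WSC1, at -0.44 ± 0.24 (SD, n = 4; limma, adjusted p = 0.163) and negative on 4 of 4 arrays as deposited. Its signs were mixed after turning, with a mean of -0.20 ± 0.51 (limma, adjusted p = 0.24). MID2, WSC2, WSC3 and MTL1 were blank, so the labelled genotype was not checked. Of the other regulators, RDI1 had -0.04 ± 0.22 and MSS4, a phosphatidylinositol 4-phosphate 5-kinase gene, 0.03 ± 0.21, both means smaller than their spread.

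Downstream of Rho1, the effector gene SEC3 of the exocyst had -0.27 ± 0.18 and SKN7, a transcription factor gene, -0.05 ± 0.28 (SD, n = 4), and BCK1, the kinase gene below Pkc1, -0.12 ± 0.43. PKC1 itself was negative on its 3 arrays, from -0.24 to -0.09, while SLT2, the kinase gene at the end of the cascade, was positive on its 3 arrays, with 0.58 and 0.95 on the Cy3 arrays against 0.14 on array 2. Other genes of these lists also had incomplete values. SWI4 was negative on its 3 arrays, from -0.75 to -0.14, and RLM1 on its 2, with -0.41 and -0.06 on arrays 1 and 2. BNI1 had -0.90 on array 3, against 0.02 and 0.18 on arrays 2 and 4. Among the 374 genes with 3 values, 48.1% were negative on all 3. The share of all genes with the signs of SLT2 or of RLM1 on the same number of arrays was not counted. After turning, PKC1, SLT2, SWI4 and RLM1 had mixed signs, and BNI1 was negative on its 3 arrays. UGP1 and PGM1, whose enzymes supply UDP-glucose, the substrate of the synthase, had 0.10 ± 0.26 and -0.11 ± 0.21. The 5 of these genes with 4 values did not pass (limma, adjusted p from 0.215 to 0.815). PKC1, SLT2, SWI4, RLM1 and BNI1 were not tested in that fit.

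Among the enzymes that remodel finished beta-1,3-glucan, 7 of 9 genes had 4 values. GAS1 was also chosen for this list, but the deposited table holds no row for it, so it is not counted. CRH1, which links chitin to glucan, was positive on all arrays, from 0.72 to 1.19, with a mean of 0.86 ± 0.22 (SD, n = 4; limma, adjusted p = 0.163). GAS2, a glucanosyltransferase gene best known from sporulation, had -0.58 ± 0.54 and was negative on 4 of 4 arrays, and BGL2, a wall glucanase gene, 0.45 ± 0.52 with 1 negative array (both adjusted p = 0.163). BGL2 changed sign when turned by the dye labels, to -0.44 ± 0.53 (limma, adjusted p = 0.078), and GAS2 had -0.46 ± 0.68 there (limma, adjusted p = 0.0805). Turned by the dye labels, the mean of CRH1 was 0.10 ± 1.01 (SD, n = 4; limma, adjusted p = 0.571), smaller than its spread.

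**Figure D4:**
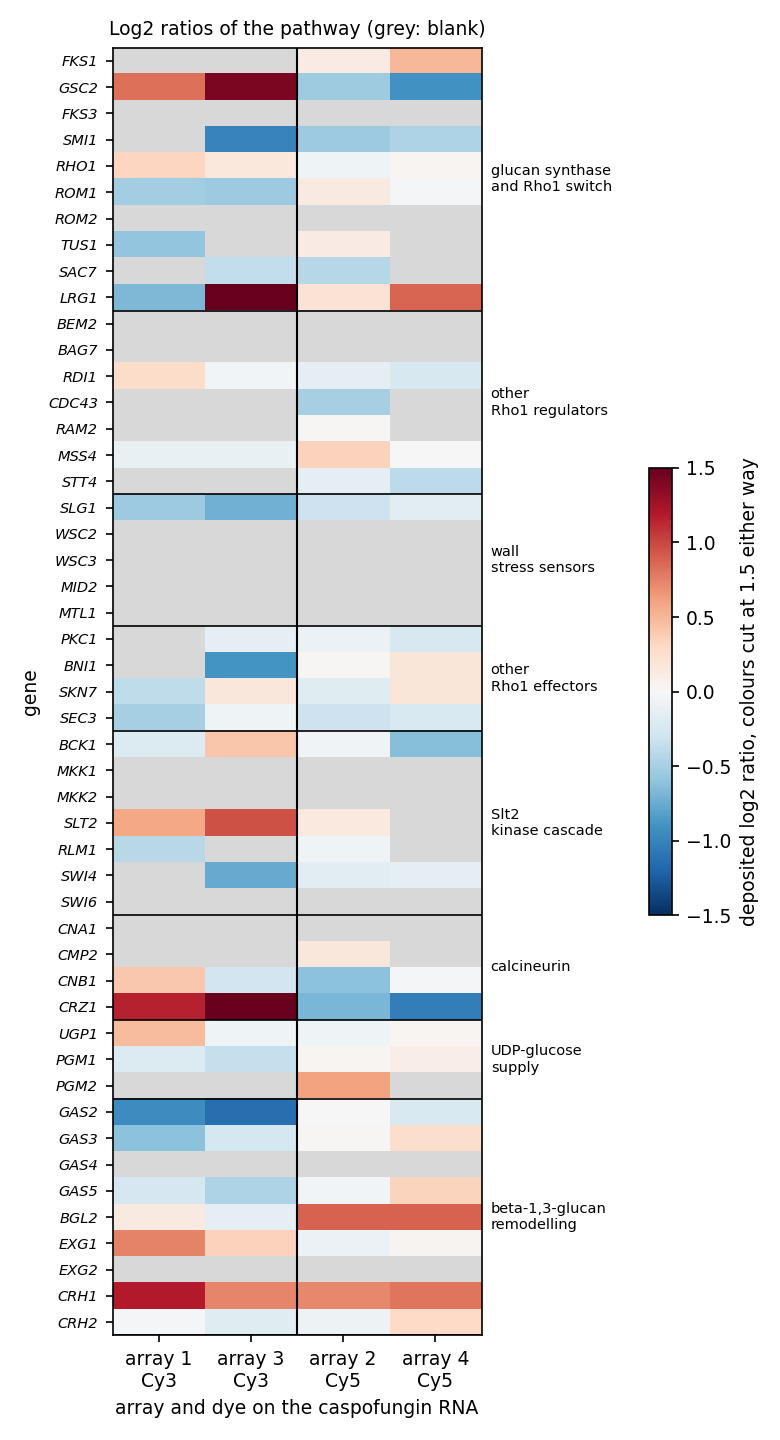
Deposited log2 ratio as colour (red positive, blue negative, grey blank, cut at 1.5 either way) for the 10 genes and the 39 genes of the 7 pathway lists, with 1 row per gene and 1 column per array grouped by the dye on the caspofungin RNA. GSC2 and CRZ1 change sign between the column pairs, CRH1 is red throughout, and 12 list genes are grey throughout.

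Of the mating type markers, 5 of 5 a-cell genes had 4 values, and 0 of 4 alpha-cell genes did, beside 47.1% of all genes. Of the alpha-cell genes, 2 had values on 1 to 3 arrays and 2 were blank on every array. Ratios do not show levels, so these counts leave the labelled MATa background unverified.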

How the data were processed

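Total RNA of the caspofungin-treated and the untreated portion of 2 cultures was measured on 4 2-colour arrays, per the labels' protocols. The deposited values are log2 ratios made by the authors. That the base is 2 follows from the numbers themselves: on each array, 100% of the values gave a linear ratio of 4 decimals, within 2e-06, with that base. How the authors corrected, normalized and centred them, in which direction, and on which build is not given in the sources used here. Names came from the RefSeq R64 gene table, which matched 5654 of 6207 genes.

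The 2925 genes with 4 values were fitted in limma 3.58.1 (R 4.3.3), testing the mean of 2 culture means against 0. Both pairings of opposite dye orientation were fitted. A gene's larger p entered the Benjamini-Hochberg adjustment over all genes, with a threshold of 0.05. The dye-following part was fitted in the same way after turning arrays 2 and 4. The number of arrays limits the precision. The fit was tested on simulated data.

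The genes and lists were chosen with earlier results of these data known. Named were the 10 genes, the 5 nearest patterns of those with a range over 1, and, in each list, up to 3 genes of largest absolute mean. HIS3, LEU2, PKC1, SLT2, SWI4, RLM1, BNI1, TIM21 and YDL241W were added by choice. Alternatives were the pairing, the signs, centring, scaling, blank cells, arrays as replicates and each array left out.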

Additional observations from a re-analysis of the deposited data

Results flagged for a closer look

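Signs that differed without overlap between the 2 dye orientations were found in GSC2 and 3 named list genes, with means after turning by the dye labels of 0.92 for GSC2, 1.10 for CRZ1, -0.14 for MSS4 and -0.17 for PGM1. The genes were picked out by the split that the dye part measures, and none of the 4 passed (limma, adjusted p from 0.0763 to 0.379). Among genes with 4 values, 1 of 4 in the set split as GSC2 did. Of the 17 list genes, 1 did so and 3 split the opposite way. Over all genes tested, 13.4% split as GSC2 did and 19.7% the opposite way. CRZ1 passed with arrays 1 and 2 paired (limma, adjusted p = 0.021), with arrays centred (0.0497) and with arrays centred and scaled (0.0233). In those fits 485, 237 and 590 of the 2925 genes passed, in that order.

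UGP1 had 1 array far from the other 3, with the gap at 0.837 of the gene's whole range, above Dixon's critical value for 4 samples. It was 1 of 28 genes checked, and chance alone gives about 1 in 20.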

How the results depend on the processing

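The count of genes past the test was 1 and depended on most settings. It was 148 with arrays 1 and 4 paired, 0 turned by the dye labels, 10 with arrays centred, 48 centred and scaled, 0 for genes with at least 3 values, 109 with arrays as replicates and a dye term, 17 without that term, and from 1 to 61 with 1 array left out. The count for the dye part was 0, and 485 with arrays 1 and 2 paired, 237 with arrays centred and 590 centred and scaled. RHO1, ROM1 and LRG1 kept their sign and stayed short of the threshold in 11 of 11 alternatives each, turning by the dye labels not counted, as did GSC2 in 9 of 11. The sign was fixed in advance in some of these. Each pairing alone, the genes with at least 3 values and the arrays as replicates leave the mean of these genes unchanged. Only centring, scaling and leaving out an array could change a sign. The GSC2 mean reversed without array 1 or array 3, and ran from -0.21 to 0.56 with 1 array left out. Its dye part passed in 3 of 4 alternatives. The causes were not tested. Each ratio already pairs treated with untreated RNA, so no further block was fitted.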
